A study of Homo sapiens with 21 samples.

Results

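The FOS, JUN and early response genes FOS, FOSB, FOSL1, FOSL2, JUN, JUNB, JUND, EGR1, IER2 and IER3 were followed across 21 RNA-seq libraries of HCC1806, an established line of human triple-negative breast cancer cells. The 10 genes were chosen by symbol, by matching the Ensembl identifiers of the count tables without their version, and they make up 10 of 60668 listed genes. All 10 had enough reads to be tested in every comparison. The cells carried constructs for SR proteins, a family of splicing factors, or for the transcription factor MYC. The first count table held the groups 3xCTL (genotype given only as control), 3xSR (SRSF2, SRSF3 and SRSF7 together, per the series title) and MYC-OE (MYC overexpression). The second table held 1xCtrl (a single plasmid control) and SRSF2-OE, SRSF3-OE and SRSF7-OE, each labelled as overexpressing that 1 splicing factor. Each group had 3 libraries, and all cells were grown in 2 dimensions in serum-containing medium and collected near confluence. The labels name no vector, promoter or clone, and nothing says that replicates came from separate cultures, so the p-values below measure only the spread between these libraries, which may be technical. MYC-OE has no control of its own in the labels and was set against 3xCTL, with which it shares a table.

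AP-1 is a transcription factor made of a pair of leucine zipper proteins, either a FOS protein with a JUN protein or a pair of JUN proteins. FOS, FOSB, JUN, JUNB and EGR1 are the classic immediate early genes, which serum and growth factors switch on within minutes through MAP kinases acting on factors already present, and which then decay. FOSL1 (the protein FRA-1) and FOSL2 (FRA-2) lack the strong activation domain of FOS, follow with slower kinetics, and FRA-1 is known for its high level in basal-like breast cancer cells. The values here are levels at 1 harvest in growing cells, not the response to a stimulus.

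The known control of these genes runs through short promoter elements, so the promoters of 3 members that differed in their response are shown. RefSeq (GRCh38.p14) gave a promoter for 8 of the 10 genes, all but FOSL1 and IER3. Up to 250 bases before the gene start were searched on both strands, and the FOSB window held 249. The elements were TGACG, a core of the sites of CREB and ATF proteins, TGACNTCA, the full form of such sites (which contains TGACG where N is G), and TGANTCA, the AP-1 site itself. The CArG box, bound by SRF in immediate early genes, was searched by its usual consensus. Capitals mark TGACG (or its complement CGTCA) and the CArG boxes. The EGR1 window is chr5:138465229-138465478, the IER2 window chr19:13150161-13150410 and the FOSB window chr19:45467746-45467994, all on the plus strand and written 5′ to 3′.
EGR1: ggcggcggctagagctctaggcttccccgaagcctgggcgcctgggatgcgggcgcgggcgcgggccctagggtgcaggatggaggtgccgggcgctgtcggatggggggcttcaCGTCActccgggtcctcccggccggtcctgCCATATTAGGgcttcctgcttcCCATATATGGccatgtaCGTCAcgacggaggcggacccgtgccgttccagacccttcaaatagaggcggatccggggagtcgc
IER2: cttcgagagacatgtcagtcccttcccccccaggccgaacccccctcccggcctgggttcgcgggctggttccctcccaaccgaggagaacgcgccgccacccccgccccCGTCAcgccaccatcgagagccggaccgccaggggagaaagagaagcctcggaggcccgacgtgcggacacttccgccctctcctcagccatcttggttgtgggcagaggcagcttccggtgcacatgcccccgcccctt
FOSB: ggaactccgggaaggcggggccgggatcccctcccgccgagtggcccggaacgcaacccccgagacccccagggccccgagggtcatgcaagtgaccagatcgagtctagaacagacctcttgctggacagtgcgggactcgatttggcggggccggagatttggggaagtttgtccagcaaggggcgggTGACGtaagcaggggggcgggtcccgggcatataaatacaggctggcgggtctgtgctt

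All 8 promoters held TGACG, against 21.2% of 35116 promoter windows in the same table. Within the window searched, EGR1 alone held CArG boxes, 2 of them, against 1.16% of windows with at least 1. Boxes farther upstream, in FOS or any other member, were not searched. JUN and JUND held TGACNTCA (6.87% of windows), and TGANTCA was in none of the 8 (6.57% of windows). These are matches of letters in a window of up to 250 bases, not measured binding sites. The shares are over all 35116 windows, which were not matched to the members for base composition, and no test was made.

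In GENCODE 29 (GRCh38), the FOS family genes lie at chr14:75278774-75282230 (FOS, plus strand), chr19:45467995-45475179 (FOSB, plus), chr11:65892049-65900573 (FOSL1, minus) and chr2:28392448-28417312 (FOSL2, plus). The JUN family lies at chr1:58780788-58784327 (JUN, minus), chr19:12791496-12793315 (JUNB, plus) and chr19:18279760-18281622 (JUND, minus). EGR1 is at chr5:138465490-138469315 (plus), IER2 at chr19:13150415-13154908 (plus) and IER3 at chr6:30743199-30744554 (minus). All are protein-coding. For JUN, JUNB, JUND and IER3 the exons of all annotated transcripts merge into 1 block, which does not give the number of exons of a transcript. Exons of 3 members overlap a gene on the other strand: 259 of 1820 exon bases of JUNB overlap HOOK2, 946 of 3072 of IER2 overlap AC011446.2, and 359 of 1356 of IER3 overlap IER3-AS1. The strand setting of the counting is not given in the sources used here, so reads in those stretches could belong to either gene.

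The libraries held 143269192 to 303323552 counts, which left 120 to 414 counts for FOS, the member with the fewest, and 14886 to 35312 for FOSL2, the one with the most. Markers of a basal-like epithelial line were high (KRT5 1600 to 2650 CPM, the usual depth-scaled count, here on TMM-scaled library sizes). Of the receptors by which triple-negative tumours are defined, PGR lay at 0 to 1.46 CPM, ESR1 at 6.49 to 11.5 CPM and ERBB2 (HER2) at 99.6 to 184 CPM. Among 8 markers of other cell types, CD3E did not exceed 0.0254 CPM, PTPRC lay at 0.126 to 0.539 CPM, and their sum came mostly from LUM and COL1A1. That sum was 46.8 to 49.0 CPM in 3xCTL against 22.6 to 25.2 in 3xSR and 18.5 to 18.7 in MYC-OE, and 27.8 to 32.0 in 1xCtrl against 15.7 to 16.1, 14.5 to 15.9 and 20.3 to 23.4 in libraries labelled SRSF2-OE, SRSF3-OE and SRSF7-OE; its part in the results below was not tested. Against the control, the targeted genes rose as labelled except for SRSF2. Its log2 change was -0.16 (adjusted p = 0.098) in libraries labelled SRSF2-OE and -0.06 (adjusted p = 0.389) in those labelled 3xSR. SRSF3 rose by 0.49 in SRSF3-OE and 0.31 in 3xSR, SRSF7 by 0.26 in SRSF7-OE and 0.44 in 3xSR, and MYC by 0.90 in MYC-OE but also by 0.75 in 3xSR (edgeR, all with adjusted p at or below 0.00616). SRSF3 and SRSF7 also rose in libraries labelled SRSF2-OE, by 0.30 and 0.24, and MYC in SRSF3-OE and SRSF7-OE, by 0.26 and 0.27 (adjusted p at or below 0.00794). Compared directly with the libraries labelled SRSF2-OE, SRSF7 in SRSF7-OE differed by only 0.02 (adjusted p = 0.812) and SRSF3 in SRSF3-OE by 0.19 (adjusted p = 0.0586). Between SRSF7-OE and SRSF3-OE, SRSF7 differed by 0.19 (adjusted p = 0.017) and SRSF3 by -0.41 (adjusted p = 0.000565). The change of SRSF2 was -0.38 in SRSF7-OE (adjusted p = 0.0018) and -0.48 in MYC-OE (adjusted p = 2.32e-05). The series therefore gives the libraries labelled SRSF2-OE no check from their own gene, and any direction drawn from them rests on the label.

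Some libraries stood apart by the GC content of their transcripts. Over 1438 genes with transcripts above 60% GC and a mean of at least 5 CPM, the median deviation of a library from its group mean ran from -0.345 log2 units in 1xCtrl replicate 3 to 0.499 in 1xCtrl replicate 2. The next were 3xCTL replicate 2 at -0.3, SRSF7-OE replicate 2 at -0.185 and 3xCTL replicate 1 at 0.17. The members' transcripts span 52.6% GC for FOS to 69.7% for JUND. Each result was also computed with each library's GC trend removed, and without each library in turn. The trend was taken relative to the mean of all libraries in the fit, so its removal also takes out differences between groups that follow GC. Calls against a control that these alternatives changed are given beside the results.

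Across the cells, FOSL1 was the member with the broadest change: it rose against the control in all 5 overexpressing lines, and in 4 of them its level about doubled. In the first table FOSL1 stood at 29.1, 23.1 and 26.2 CPM in the 3 libraries of 3xCTL, at 52.2, 53.5 and 52.9 CPM in 3xSR, and at 52.9, 46.9 and 53.3 CPM in MYC-OE. Every 3xSR and MYC-OE library lay above every control library, while 3xSR and MYC-OE overlapped each other. The log2 fold change was 1.01 ± 0.08 (SE, n = 3 against 3) in 3xSR and 0.96 ± 0.08 in MYC-OE, with edgeR adjusted p of 2.44e-06 and 2.33e-06. In the second table FOSL1 stood at 30.7, 36.1 and 28.2 CPM in 1xCtrl, at 83.7, 74.1 and 77.3 CPM in libraries labelled SRSF2-OE, at 64.4, 68.8 and 64.1 CPM in SRSF3-OE and at 37.2, 38.9 and 40.1 CPM in SRSF7-OE. No 2 of these 4 groups overlapped, and the order from low to high was control, SRSF7-OE, SRSF3-OE, labelled SRSF2-OE. The log2 fold change was 1.31 ± 0.08 in libraries labelled SRSF2-OE (adjusted p = 8.8e-07), 1.05 ± 0.08 in SRSF3-OE (adjusted p = 1.77e-06) and 0.29 ± 0.08 in SRSF7-OE (adjusted p = 0.0297). The SRSF7-OE rise was the least firm of the 5: it was lost with the GC trend removed (0.18, adjusted p = 0.0855) and without any 1 library other than 1xCtrl replicate 2 (adjusted p up to 0.243), and was 0.41 (adjusted p = 0.000483) without 1xCtrl replicate 2.

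**Figure D1:**
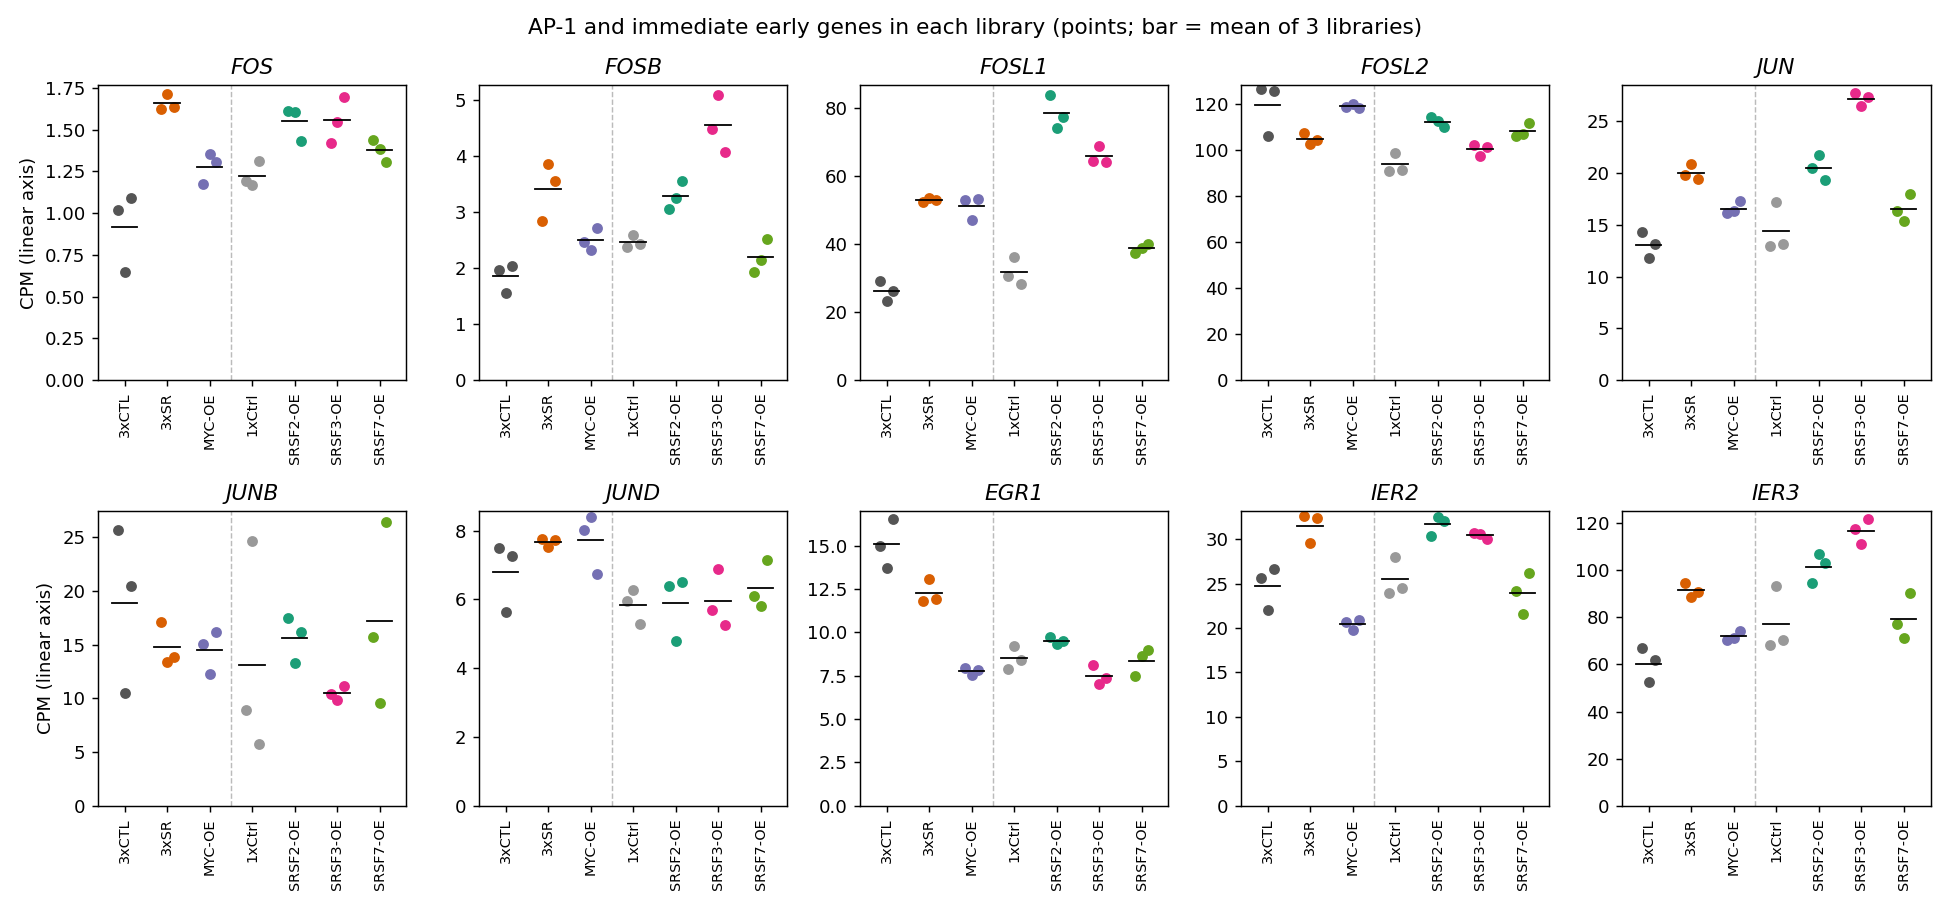
Level of each of the 10 genes in every library, in CPM on a linear axis that starts at 0, by group; points are libraries, bars are means of 3, and the dashed line separates the 2 count tables, which were scaled separately. FOSL1 lies at 46.9 to 83.7 CPM in libraries labelled SRSF2-OE, 3xSR, MYC-OE and SRSF3-OE and at 23.1 to 36.1 CPM in the controls, and JUNB spreads from 5.76 to 24.6 CPM within 1xCtrl alone.

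FOSL2, the other FOS relative without the activation domain, moved little and not in 1 direction. It stood at 126, 106 and 126 CPM in 3xCTL, 107, 103 and 104 CPM in 3xSR and 119, 120 and 118 CPM in MYC-OE. The 3xSR and control libraries overlapped at 3xCTL replicate 2, the lowest control. FOSL2 passed the test as lower in 3xSR (log2 -0.19 ± 0.06, adjusted p = 0.0444), a call that was lost without any library other than 3xCTL replicate 2 (adjusted p 0.0735 to 0.144) and with the GC trend removed (-0.12, adjusted p = 0.104). In MYC-OE its log2 change was -0.01 (adjusted p = 0.954). Across the second table it stood at 90.9, 98.6 and 91.2 CPM in 1xCtrl, 114, 112 and 110 CPM in libraries labelled SRSF2-OE, 102, 97.2 and 101 CPM in SRSF3-OE and 106, 107 and 111 CPM in SRSF7-OE. FOSL2 rose by 0.26 ± 0.05 in libraries labelled SRSF2-OE (adjusted p = 0.00347) and in SRSF7-OE (0.21 ± 0.05, adjusted p = 0.0173), without overlap with the control. In SRSF3-OE it overlapped the control and its change was 0.10 (adjusted p = 0.203), or -0.02 with scaling by total counts alone and 0.15 with the GC trend removed, where it passed (adjusted p = 0.0169). The rise in SRSF7-OE was lost without any 1 library other than 1xCtrl replicate 2 (adjusted p up to 0.212). That in libraries labelled SRSF2-OE was lost without 1xCtrl replicate 1 or 3 (0.18 and 0.20) and without replicate 1 or 2 of the labelled libraries (0.20 and 0.22).

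FOS and FOSB, the genes of the FOS family whose proteins have a full activation domain, were low throughout. FOS stood at 1.02, 0.647 and 1.09 CPM in 3xCTL and at 1.62, 1.72 and 1.64 CPM in 3xSR. It rose 1.81-fold in 3xSR (log2 0.85 ± 0.18, adjusted p = 0.00422), with no overlap, and by 0.66 without 3xCTL replicate 2, the lowest library. In MYC-OE it stood at 1.17, 1.36 and 1.31 CPM, above all controls but short of the threshold (0.48 ± 0.18, adjusted p = 0.0602), which it passed without 3xCTL replicate 3 (0.62, adjusted p = 0.0377). Among the single lines and their control, FOS stood at 1.19, 1.17 and 1.31 CPM in 1xCtrl, at 1.61, 1.61 and 1.43 CPM in libraries labelled SRSF2-OE, at 1.42, 1.55 and 1.70 CPM in SRSF3-OE and at 1.44, 1.38 and 1.31 CPM in SRSF7-OE. No FOS change passed the test there (log2 0.34, 0.35 and 0.17, adjusted p = 0.0666, 0.0534 and 0.396). With the GC trend removed, FOS passed in MYC-OE (0.51, adjusted p = 0.0263), in libraries labelled SRSF2-OE (0.33, adjusted p = 0.0494) and in SRSF3-OE (0.42, adjusted p = 0.013). DESeq2 also called it in MYC-OE (adjusted p = 0.0469) and SRSF3-OE (adjusted p = 0.0478).

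FOSB rose in 4 of the 5 lines. It stood at 1.97, 1.55 and 2.03 CPM in 3xCTL, 2.84, 3.85 and 3.54 CPM in 3xSR and 2.46, 2.32 and 2.72 CPM in MYC-OE, so that the 3 groups did not overlap. The rise was 1.84-fold in 3xSR (log2 0.88 ± 0.15, adjusted p = 0.000792) and 1.35-fold in MYC-OE (0.43 ± 0.15, adjusted p = 0.0364); the latter was lost without any library other than 3xCTL replicate 3 (adjusted p 0.0511 to 0.125). In the second table FOSB stood at 2.37, 2.59 and 2.42 CPM in 1xCtrl, 3.05, 3.24 and 3.55 CPM in libraries labelled SRSF2-OE, 4.47, 5.09 and 4.07 CPM in SRSF3-OE and 1.93, 2.14 and 2.51 CPM in SRSF7-OE. Only SRSF7-OE overlapped the control among these groups. FOSB rose 1.85-fold in SRSF3-OE (0.89 ± 0.13, adjusted p = 0.000193) and 1.33-fold in libraries labelled SRSF2-OE (0.42 ± 0.13, adjusted p = 0.03). The second of these was lost without any library other than 1xCtrl replicate 2 (adjusted p 0.0705 to 0.17). In SRSF7-OE the change was -0.17 (adjusted p = 0.421). Gene counts do not separate the splice forms of FOSB.

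Levels of different genes can be compared only per length, here as CPM per kilobase of exon. On that scale FOSL1 and FOSL2 made up nearly all of the FOS family, and FOS and FOSB held between 0.823% and 1.63% each as group means. FOSL1 held 44.5% ± 1.29 (SD, n = 3) of the summed family level in 3xCTL, 64.0% ± 0.601 in 3xSR and 60.7% ± 1.86 in MYC-OE. FOSL2 held 53.6% ± 1.20 in 3xCTL, 33.4% ± 0.836 in 3xSR and 37.4% ± 1.80 in MYC-OE. By this measure of length the larger share therefore passed from FOSL2 to FOSL1. In 1xCtrl FOSL1 was already the larger with 54.6% ± 2.15, and it held 56.3% ± 0.451 in SRSF7-OE, 69.5% ± 1.18 in SRSF3-OE and 71.3% ± 1.12 in libraries labelled SRSF2-OE. The SRSF7-OE share (55.8% to 56.7%) overlapped the range of the control (52.4% to 56.7%). These shares restate the levels above and carry no test of their own. They rest on exons merged over all annotated transcripts, 1887 bases for FOSL1 and 7157 for FOSL2. With the lengths of the transcripts expressed here, which gene is the larger in a group could differ.

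**Figure D2:**
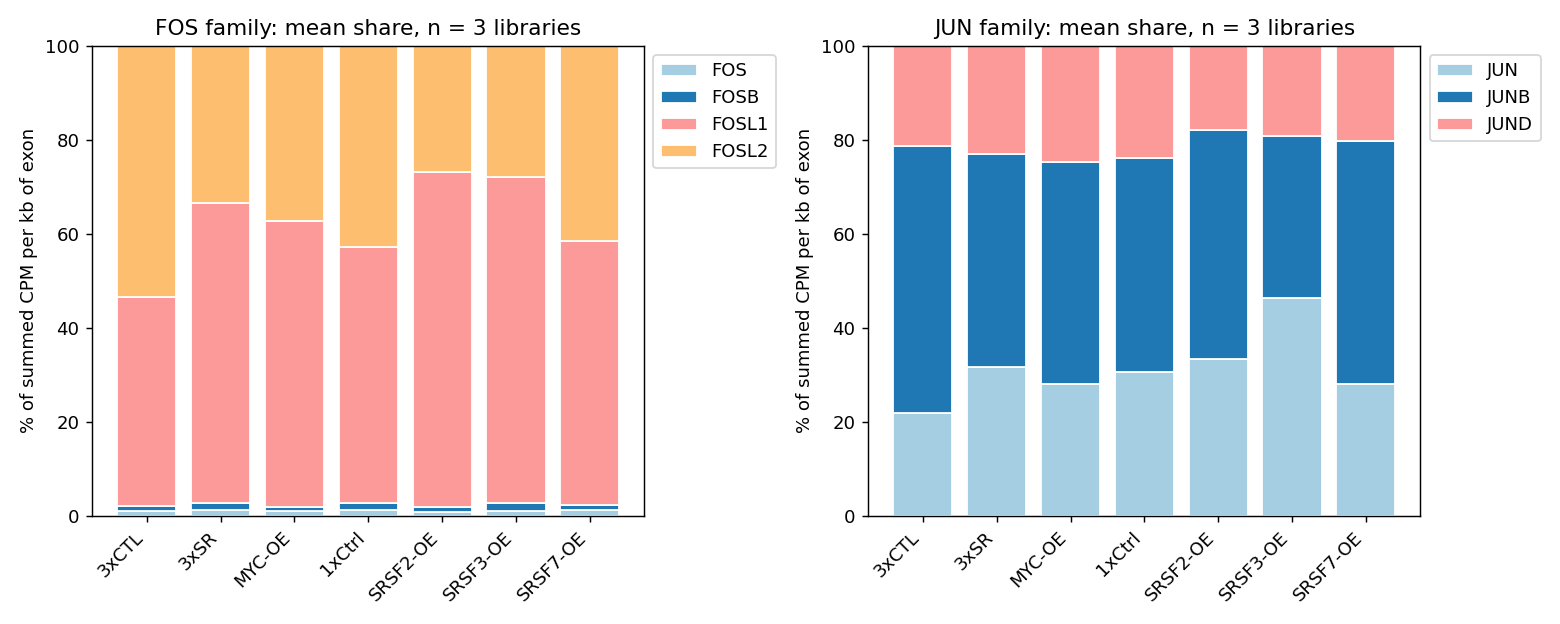
Share of each gene in the summed level of the FOS family (left) and JUN family (right), in percent of CPM per kilobase of exon, as stacked means of 3 libraries per group. FOSL1 takes 44.5% in 3xCTL and 64.0% in 3xSR, while the JUN family shares move with JUNB, which spreads from 32.6% to 62.2% over the 3 libraries of 1xCtrl.

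JUN, the founding partner of AP-1, rose in 4 lines. It stood at 14.3, 11.8 and 13.1 CPM in 3xCTL, 19.8, 20.9 and 19.4 CPM in 3xSR and 16.1, 16.3 and 17.3 CPM in MYC-OE, with no overlap among the 3 groups. The rise was 1.53-fold in 3xSR (log2 0.62 ± 0.08, adjusted p = 0.000101) and 1.27-fold in MYC-OE (0.34 ± 0.08, adjusted p = 0.00426). In the second table JUN stood at 13, 17.2 and 13.1 CPM in 1xCtrl, 20.5, 21.8 and 19.3 CPM in libraries labelled SRSF2-OE, 27.7, 26.5 and 27.4 CPM in SRSF3-OE and 16.3, 15.4 and 18.0 CPM in SRSF7-OE. The SRSF3-OE libraries were the highest of all, 1.88-fold over the control (0.91 ± 0.10, adjusted p = 3.13e-05). The rise in libraries labelled SRSF2-OE was 1.42-fold (0.51 ± 0.10, adjusted p = 0.00311); it was lost without 1xCtrl replicate 1 (0.37, adjusted p = 0.0711) or without replicate 2 of the labelled libraries (0.42, adjusted p = 0.0636). SRSF7-OE overlapped the control, whose replicate 2 was high (0.20 ± 0.10, adjusted p = 0.214); without that control library the change was 0.36 (adjusted p = 0.00426).

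JUNB and JUND passed no test against a control. JUNB, an AP-1 subunit that often opposes JUN, varied widely among replicates. It stood at 25.6, 10.5 and 20.4 CPM in 3xCTL, 17.1, 13.4 and 13.8 CPM in 3xSR and 15.0, 12.3 and 16.1 CPM in MYC-OE. In 1xCtrl JUNB stood at 8.95, 24.6 and 5.76 CPM, against 17.4, 13.3 and 16.2 CPM in libraries labelled SRSF2-OE, 10.4, 9.80 and 11.2 CPM in SRSF3-OE and 15.7, 9.59 and 26.4 CPM in SRSF7-OE. Within 1xCtrl alone the highest library was 4.27 times the lowest. The log2 changes were -0.35 and -0.38 in 3xSR and MYC-OE (SE 0.31 each, adjusted p = 0.45 and 0.39) and 0.26, -0.33 and 0.39 in libraries labelled SRSF2-OE, SRSF3-OE and SRSF7-OE (SE about 0.53, adjusted p = 0.785, 0.707 and 0.682). Without 3xCTL replicate 2, JUNB passed as lower in 3xSR (-0.64, adjusted p = 0.0105) and MYC-OE (-0.67, adjusted p = 0.00855). With the GC trend removed the change in 3xSR was -0.01 (adjusted p = 0.976), and in MYC-OE it was -0.47 (adjusted p = 0.107).

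JUND, the JUN protein that is usually expressed without a stimulus, was steadier. It stood at 7.50, 5.62 and 7.26 CPM in 3xCTL, 7.76, 7.53 and 7.71 CPM in 3xSR and 8.01, 8.40 and 6.73 CPM in MYC-OE, and over the second table it stayed between 4.78 and 7.13 CPM. Its log2 changes were 0.18 in both 3xSR (adjusted p = 0.295) and MYC-OE (adjusted p = 0.256) and lay between 0.01 and 0.12 in the second table. With the GC trend removed JUND passed as higher in 3xSR (0.47, adjusted p = 0.00601), while in MYC-OE its change was -0.02 (adjusted p = 0.91).

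EGR1, the zinc finger factor with the CArG boxes shown above, fell in both lines of the first table. It stood at 14.9, 13.7 and 16.5 CPM in 3xCTL, 11.8, 13.1 and 11.9 CPM in 3xSR and 7.96, 7.56 and 7.81 CPM in MYC-OE. The 3 groups stepped down without overlap. EGR1 fell by 0.95 on the log2 scale in MYC-OE (0.516-fold, SE 0.08, adjusted p = 3.14e-06) and by 0.30 in 3xSR (0.814-fold, SE 0.08, adjusted p = 0.0163). The 3xSR call was lost without 3xCTL replicate 3 (-0.23, adjusted p = 0.0699), 3xSR replicate 1 (-0.27, adjusted p = 0.0617) or 3xSR replicate 3 (-0.28, adjusted p = 0.0677). The second table had EGR1 at 7.91, 9.24 and 8.41 CPM in 1xCtrl, 9.70, 9.33 and 9.52 CPM in libraries labelled SRSF2-OE, 8.09, 7.03 and 7.38 CPM in SRSF3-OE and 7.46, 8.64 and 8.98 CPM in SRSF7-OE. No change passed there (0.16, -0.18 and -0.03, adjusted p = 0.261, 0.173 and 0.889), except that with scaling by total counts alone EGR1 was lower in SRSF3-OE (-0.30, adjusted p = 0.0358). The controls of the 2 tables stood at 15.1 ± 1.42 and 8.52 ± 0.670 CPM (SD, n = 3), but the tables were scaled separately and the difference was not tested.

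IER2, an early response gene whose product acts in the nucleus, rose in 3 lines and fell in MYC-OE. It stood at 25.6, 22.1 and 26.6 CPM in 3xCTL, 32.6, 29.6 and 32.4 CPM in 3xSR and 20.7, 19.8 and 20.9 CPM in MYC-OE, with no overlap. The log2 change was 0.35 ± 0.07 in 3xSR (adjusted p = 0.00373) and -0.27 ± 0.07 in MYC-OE (adjusted p = 0.0116). The 3xSR rise was 0.59 with the GC trend removed. The fall in MYC-OE was lost without 3xCTL replicate 3 (-0.22, adjusted p = 0.0554). In the second table IER2 stood at 24.0, 27.9 and 24.5 CPM in 1xCtrl, 30.4, 32.5 and 32.0 CPM in libraries labelled SRSF2-OE, 30.7, 30.6 and 30.0 CPM in SRSF3-OE and 24.2, 21.6 and 26.2 CPM in SRSF7-OE. It rose by 0.31 ± 0.08 in libraries labelled SRSF2-OE (adjusted p = 0.0115) and by 0.26 ± 0.08 in SRSF3-OE (adjusted p = 0.0265), both clear of the control. Both calls were lost without any library other than 1xCtrl replicate 2 (adjusted p 0.0863 to 0.191 and 0.196 to 0.345). The first was also lost with the GC trend removed (0.32, adjusted p = 0.0691), and the second with scaling by total counts alone (0.14, adjusted p = 0.238). SRSF7-OE overlapped the control (-0.09, adjusted p = 0.508).

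IER3, a stress- and growth-factor-induced regulator of cell survival, rose in the same 4 lines as FOSB and JUN. It stood at 66.8, 52.4 and 61.9 CPM in 3xCTL, 94.8, 88.8 and 90.8 CPM in 3xSR and 70.4, 71.1 and 74.1 CPM in MYC-OE. The 3xSR rise was 1.51-fold (log2 0.60 ± 0.08, adjusted p = 0.000119) and the MYC-OE rise 1.19-fold (0.25 ± 0.08, adjusted p = 0.0221), the latter lost without MYC-OE replicate 2 (0.26, adjusted p = 0.0541) or 3 (0.23, adjusted p = 0.0782). For the single lines, IER3 stood at 68.1, 93.2 and 70.3 CPM in 1xCtrl, 94.4, 107 and 103 CPM in libraries labelled SRSF2-OE, 117, 111 and 122 CPM in SRSF3-OE and 76.9, 71.2 and 90.4 CPM in SRSF7-OE. The groups of the 2 rises below did not overlap the control, although its replicate 2 lay close to the lowest library labelled SRSF2-OE. The rise was 1.51-fold in SRSF3-OE (0.60 ± 0.12, adjusted p = 0.00204) and 1.31-fold in libraries labelled SRSF2-OE (0.39 ± 0.12, adjusted p = 0.028), and SRSF7-OE overlapped the control (0.04, adjusted p = 0.858). The SRSF3-OE call was lost without 1xCtrl replicate 1 (0.44, adjusted p = 0.0574) or SRSF3-OE replicate 1 (0.54, adjusted p = 0.0509) or 3 (0.50, adjusted p = 0.0562). The other was lost without any library other than 1xCtrl replicate 2 (adjusted p 0.143 to 0.308).

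**Figure D3:**
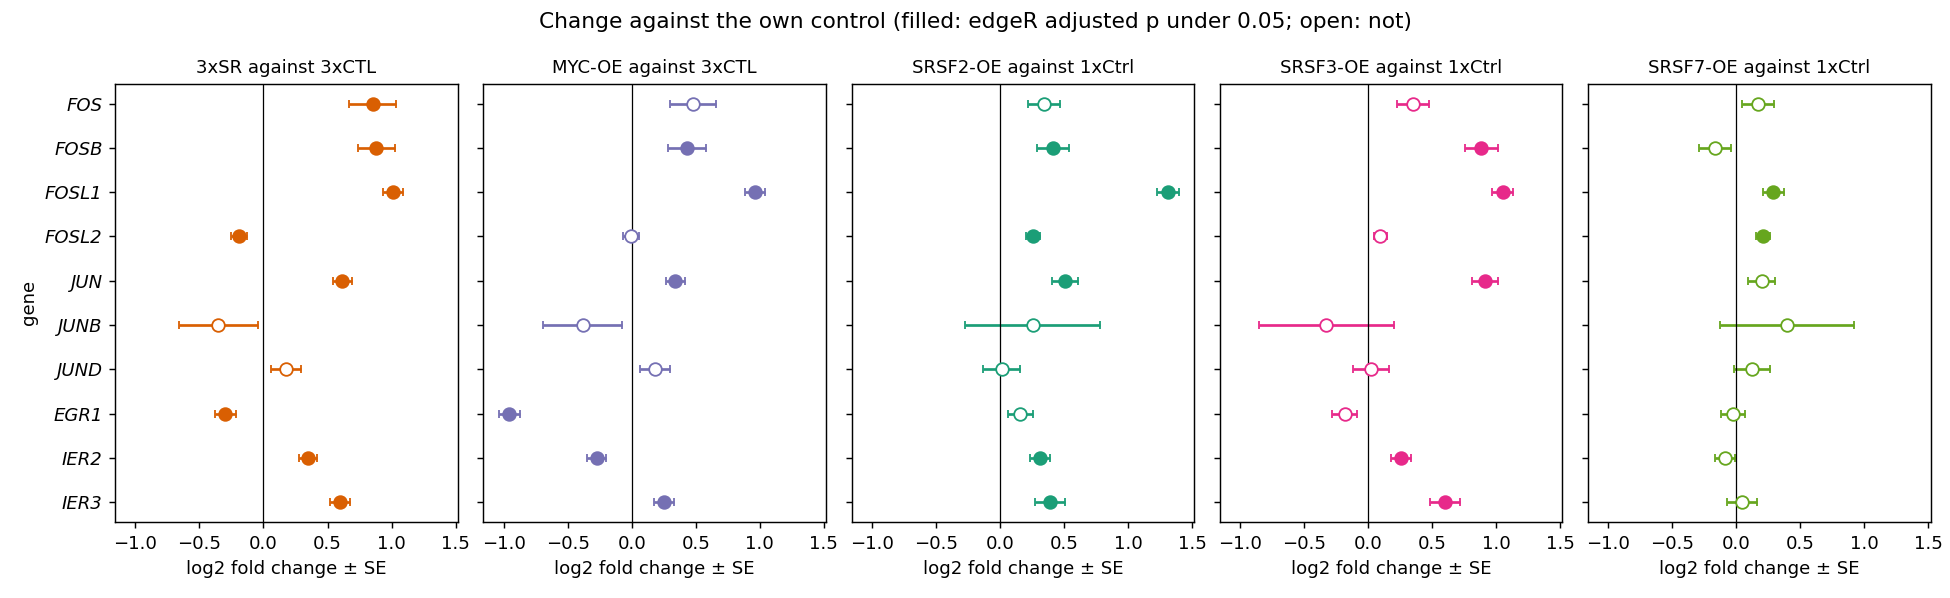
Log2 fold change with its standard error for each gene in each line against the control of its table (n = 3 against 3 libraries; filled points have an edgeR adjusted p under 0.05). FOSL1 is filled in all 5 panels, EGR1 lies furthest left in MYC-OE at -0.95, and JUNB has the widest bars.

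Counted together, 8 of the 10 genes passed the test in 3xSR, 6 as higher and 2 as lower, where 29.0% of all 23160 genes tested did (15.3% higher, 13.7% lower). In MYC-OE 6 passed, 4 higher and 2 lower, against 35.3% of all genes (18.0% higher, 17.3% lower). In the libraries labelled SRSF2-OE 6 passed, all higher, against 23.5% of 24362 genes (11.6% higher, 11.9% lower), and in SRSF3-OE 5 passed, all higher, against 29.2% (15.0% higher, 14.1% lower). In SRSF7-OE 2 passed, both higher, against 17.3% (9.03% higher, 8.26% lower). With edgeR, DESeq2 and limma-voom under TMM scaling or DESeq2's own, with all libraries and the filter on low counts, no member was called lower in the 3 lines of the second table, with 0 at an unadjusted p under 0.05. With edgeR scaled by total counts alone, EGR1 was called lower in SRSF3-OE. The split of all calls there moved with the scaling: with total counts alone the share of calls that were higher was 36.7% in place of 49.2% in libraries labelled SRSF2-OE and 32.1% in place of 51.6% in SRSF3-OE (38.6% with upper-quartile scaling), where the median of all genes shifted by -0.111. The members' median log2 change was 0.47 in 3xSR, 0.22 in MYC-OE, 0.14 in SRSF7-OE, 0.30 in SRSF3-OE and 0.33 in libraries labelled SRSF2-OE, against medians of all genes between -0.03 and 0. The lines of a table share their control libraries, so these 5 counts are not independent of one another. The members were also chosen with earlier results of these data known. Leaving out 1xCtrl replicate 2 gave 6, 5 and 3 members in libraries labelled SRSF2-OE, SRSF3-OE and SRSF7-OE. Leaving out 1xCtrl replicate 1 gave 1, 3 and 0 in edgeR, and the 1 in libraries labelled SRSF2-OE was FOSL1. Leaving out 1xCtrl replicate 3 gave 2, 4 and 0. At an unadjusted edgeR p under 0.05, 0 and 1 members passed in SRSF7-OE without replicate 1 and without replicate 3.

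Of the 27 calls against a control, 13 stayed past the threshold under every alternative run. These were FOS, FOSB, FOSL1, JUN, IER2 and IER3 in 3xSR, FOSL1, JUN and EGR1 in MYC-OE, FOSL1 in libraries labelled SRSF2-OE, and FOSB, FOSL1 and JUN in SRSF3-OE. No call in SRSF7-OE was among them.

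Within the first table, MYC-OE and 3xSR were then compared directly, since both raised FOSL1. FOSL1 did not pass (log2 -0.05 ± 0.08, adjusted p = 0.659), although with the GC trend removed it was lower in MYC-OE (-0.31, adjusted p = 0.000255). Of the 10 genes 6 passed, against 34.9% of all genes. FOS did not (-0.38, adjusted p = 0.131), but was lower in MYC-OE when only the groups compared were fitted (adjusted p = 0.0356). MYC-OE was lower for EGR1 (-0.66 ± 0.08, adjusted p = 0.000102), IER2 (-0.62 ± 0.07, adjusted p = 7.12e-05), IER3 (-0.35 ± 0.08, adjusted p = 0.00406), FOSB (-0.45 ± 0.15, adjusted p = 0.0311) and JUN (-0.28 ± 0.08, adjusted p = 0.0154), and higher for FOSL2 (0.18 ± 0.06, adjusted p = 0.0443). The libraries of the 2 groups did not overlap for any of these 6. EGR1, IER2 and IER3 passed under every alternative, and with the GC trend removed IER2 was -0.96, IER3 -0.54 and JUN -0.42, while FOSL2 was lost (0.12, adjusted p = 0.078) and JUND was called lower (-0.49, adjusted p = 0.00395). FOSL2 was lost without any 1 library of the 2 groups (adjusted p up to 0.119), FOSB without 3xSR replicate 2 or 3 or MYC-OE replicate 1 or 2 (adjusted p up to 0.141) and JUN without 3xSR replicate 2 or MYC-OE replicate 1 or 2 (adjusted p up to 0.074).

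Within the second table the 3 single lines differed in which AP-1 genes were highest. Between SRSF3-OE and the libraries labelled SRSF2-OE 5 members passed, against 26.8% of all genes: FOSB (0.47 ± 0.13, adjusted p = 0.0144) and JUN (0.41 ± 0.10, adjusted p = 0.0102) were higher in SRSF3-OE, and FOSL1 (-0.25, adjusted p = 0.0385), FOSL2 (-0.16, adjusted p = 0.0385) and EGR1 (-0.34, adjusted p = 0.0165) were lower. With the GC trend removed FOSL1 (-0.12, adjusted p = 0.219) and FOSL2 (-0.08, adjusted p = 0.208) were lost and IER3 was called higher in SRSF3-OE (0.34, adjusted p = 0.00235). IER3 was also called there when only the groups compared were fitted (0.18, adjusted p = 0.0214). With 1 of the 6 libraries left out, 0 to 2 members passed in edgeR (3 to 5 at an unadjusted p under 0.05 where none did, which was without replicate 1 or 2 of the libraries labelled SRSF2-OE or without SRSF3-OE replicate 2). SRSF7-OE was lower than the libraries labelled SRSF2-OE for 5 members, against 24.2% of all genes. These were FOSL1 (-1.02 ± 0.08, adjusted p = 5.19e-06), FOSB (-0.58 ± 0.13, adjusted p = 0.00481), IER2 (-0.40 ± 0.08, adjusted p = 0.00261), JUN (-0.31, adjusted p = 0.0424) and IER3 (-0.35, adjusted p = 0.045), of which JUN and IER3 were lost without any 1 of the 6 libraries (adjusted p up to 0.289 and 0.318). SRSF7-OE was also lower than SRSF3-OE for 5 members, against 35.2% of all genes. The values were -1.05 ± 0.13 for FOSB (adjusted p = 3.46e-05), -0.76 ± 0.08 for FOSL1 (adjusted p = 1.51e-05), -0.72 ± 0.10 for JUN (adjusted p = 0.000136), -0.56 ± 0.12 for IER3 (adjusted p = 0.00261) and -0.34 ± 0.08 for IER2 (adjusted p = 0.0042). FOSB, FOSL1 and JUN passed there under every alternative run. Scaled by total counts alone, FOSL2 (0.22, adjusted p = 0.00798) and EGR1 (0.27, adjusted p = 0.0487) were called higher in SRSF7-OE than in SRSF3-OE. The split of all calls moved with the scaling here too: 52.8% of calls were higher in SRSF3-OE than in libraries labelled SRSF2-OE, or 39.0% under upper-quartile scaling. Scaled by total counts alone, the share higher in SRSF7-OE was 63.4% in place of 52.7% against the libraries labelled SRSF2-OE and 64.7% in place of 49.3% against SRSF3-OE. With the GC trend removed IER2 differed by -0.63 between SRSF7-OE and SRSF3-OE. IER2 was lost without SRSF3-OE replicate 1 or SRSF7-OE replicate 2 (adjusted p up to 0.0796) and IER3 without SRSF3-OE replicate 3 or SRSF7-OE replicate 1 or 2 (adjusted p up to 0.0564).

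The change in 3xSR was set against that in each single line in a joint fit of the 21 libraries, which tests the difference between 2 changes, each against its own control. Of the 10 genes, 2 differed from the libraries labelled SRSF2-OE (21.9% of all 25013 genes tested), 1 from SRSF3-OE (17.8%) and 7 from SRSF7-OE (24.6%). Of all calls against SRSF3-OE 60.6% were higher in 3xSR, or 76.3% with total counts alone and 71.3% with upper-quartile scaling. The change of FOSL2 was lower in 3xSR than in the single line in all 3 of these tests, by -0.44, -0.27 and -0.39. The second of these calls was lost with total counts alone, with upper-quartile scaling and without any 1 of 8 libraries. All 3 tests share the libraries of 3xSR, 3xCTL and 1xCtrl, so they are not independent of one another. FOSL2 stood at 119 CPM in 3xCTL and 93.6 CPM in 1xCtrl. Since 3xSR and the single lines lie in separate count tables with separate controls, line, control and table cannot be told apart. For FOSL1 the difference from SRSF3-OE was -0.02 ± 0.12 (adjusted p = 0.936) and that from the libraries labelled SRSF2-OE -0.28 ± 0.12 (adjusted p = 0.116). With the GC trend removed FOS (0.61, adjusted p = 0.0263), FOSB (0.62, adjusted p = 0.00767), JUN (0.26, adjusted p = 0.0264) and IER3 (0.34, adjusted p = 0.00802) also rose more in 3xSR than in libraries labelled SRSF2-OE, and JUN rose less than in SRSF3-OE (-0.29, adjusted p = 0.015). The values that passed are given in full after the report.

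Other genes of the pathway were described by 5 lists, with the count passing the test in each direction. These counts stand beside 29.0% of all genes passing in 3xSR, 35.3% in MYC-OE, 17.3% in SRSF7-OE, 29.2% in SRSF3-OE and 23.5% in libraries labelled SRSF2-OE, and nothing is called particular to a list. Among MAP kinase phosphatases, Sprouty and SPRED proteins and the EGR corepressors NAB1 and NAB2, which damp the signal that induces these genes, 13 of 17 rose and 1 fell in 3xSR, where SPRY4 rose from 8.94 to 23.9 CPM (log2 1.42 ± 0.10, adjusted p = 1.07e-06) and NAB2 fell by 0.25. In MYC-OE 6 rose and 3 fell, with SPRED1 down from 35.1 to 19.1 CPM (-0.88 ± 0.06, adjusted p = 2.65e-07). The second table gave 8 higher and 4 lower in libraries labelled SRSF2-OE, 10 and 1 in SRSF3-OE, and 1 and 3 in SRSF7-OE. In SRSF3-OE the phosphatase gene DUSP1, itself an early gene, rose by 1.26 ± 0.09 (adjusted p = 6.67e-07) and NAB1 fell by 0.53. The median log2 changes of the list were 0.60, 0.05, 0.16, 0.32 and -0.04 in the 5 lines in the order 3xSR, MYC-OE, SRSF2-OE as labelled, SRSF3-OE and SRSF7-OE.

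Among 31 other immediate early genes tested of 33 listed, 17 rose and 1 fell in 3xSR, 14 rose and 5 fell in MYC-OE, 14 rose and 1 fell in libraries labelled SRSF2-OE, and 16 rose in SRSF3-OE. No gene of that list was called lower in SRSF3-OE by edgeR, DESeq2 or limma-voom with all libraries, with 2 lower at an unadjusted edgeR p under 0.05; edgeR called 1 lower with the GC trend removed and 2 lower without 1xCtrl replicate 2. In SRSF7-OE 6 rose and 6 fell, or 11 and 6 without 1xCtrl replicate 2, and 4 and 8 with the GC trend removed. ATF3, a stress-induced relative of the AP-1 proteins, rose from 3.31 to 8.69 CPM in 3xSR (log2 1.39 ± 0.09, adjusted p = 6.12e-07) and to 7.51 CPM in MYC-OE. ATF3 also rose in SRSF3-OE (1.20 ± 0.08) and fell by 0.44 in SRSF7-OE (adjusted p = 0.00312). PPP1R15A, which acts in the stress control of translation, rose from 68.3 to 159 CPM in SRSF3-OE (1.22 ± 0.07, adjusted p = 9.5e-08). CCN2, a secreted matrix-associated growth regulator, rose by 1.31 ± 0.08 in libraries labelled SRSF2-OE (adjusted p = 4.07e-07). In MYC-OE the most reduced was ZFP36, a protein that destabilises early mRNAs, at -0.72 ± 0.08 (adjusted p = 3.65e-05), and in 3xSR it was RHOB (-0.68 ± 0.09, adjusted p = 0.000163).

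Among 20 textbook AP-1 targets, 13 rose and 2 fell in 3xSR, 13 rose and 1 fell in MYC-OE, 10 rose and 1 fell in libraries labelled SRSF2-OE, 10 rose and 3 fell in SRSF3-OE, and 4 rose and 3 fell in SRSF7-OE. The collagenase gene MMP1 stood at 365 ± 35.2 CPM (SD, n = 3) in 3xCTL and 1703 ± 80.9 CPM in 3xSR (log2 2.22 ± 0.07, adjusted p = 3.19e-09). MMP1 was 1142 ± 149 CPM in 1xCtrl and fell by 0.84 ± 0.09 in SRSF7-OE (adjusted p = 0.000123). The receptor kinase gene AXL rose by 3.24 ± 0.10 in MYC-OE (5.14 to 48.7 CPM, adjusted p = 6.77e-10). MMP3 rose by 2.26 ± 0.16 in SRSF3-OE, and MMP10 by 1.68 ± 0.19 in libraries labelled SRSF2-OE. MMP13, a collagenase also counted among AP-1 targets, fell in 3xSR (-0.71), in libraries labelled SRSF2-OE (-1.40) and in SRSF3-OE (-1.70). The list's median log2 changes were 0.69, 0.68, 0.37, 0.38 and 0.17.

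On the upstream side the counts were near the shares of all genes in several lines. Of 26 genes for MAP kinases, their activators and the ternary complex factors, 4 rose and 9 fell in 3xSR, 3 rose and 8 fell in MYC-OE, 3 and 4 did so in libraries labelled SRSF2-OE, 4 and 5 in SRSF3-OE and 4 and 0 in SRSF7-OE, where edgeR gave 2 lower at an unadjusted p under 0.05 and DESeq2 called 1 lower. List medians stayed between -0.09 and 0.12. ELK3, a ternary complex factor that acts with SRF, rose by 0.44 in 3xSR, 0.49 in MYC-OE and 0.56 in SRSF3-OE. MAP2K1, the kinase MEK1, rose by 0.43 ± 0.06 in SRSF7-OE (adjusted p = 0.000387). Of 13 AP-1 partner genes tested of 14 listed, 4 rose and 1 fell in 3xSR, 6 and 3 in MYC-OE, 3 and 0 in libraries labelled SRSF2-OE (0 lower at an unadjusted edgeR p under 0.05, and 0 by DESeq2 and limma-voom), 3 and 1 in SRSF3-OE and 4 and 1 in SRSF7-OE. JDP2, which represses AP-1 sites, fell by 0.54 in 3xSR and 0.88 in SRSF3-OE and rose by 0.72 in SRSF7-OE. ATF3 and MAFF belong to 2 of the lists. Without 1xCtrl replicate 2, an alternative chosen after seeing the data, SRSF7-OE gave more calls, with 14 of 26 upstream genes (10 higher, 4 lower) and 15 of 20 AP-1 targets (10 higher, 5 lower) passing in place of 4 and 7. The same counts, 14 and 15, came with the GC trend removed. Calls over all genes rose as well, from 4214 to 7321 without that library and to 7005 with the GC trend removed. Without that library 12 upstream genes (6 higher, 6 lower) and 5 AP-1 partners (4 higher, 1 lower) passed in libraries labelled SRSF2-OE, in place of 7 and 3, and with the GC trend removed 17 upstream genes (9 higher, 8 lower) passed in SRSF3-OE in place of 9.

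**Figure D4:**
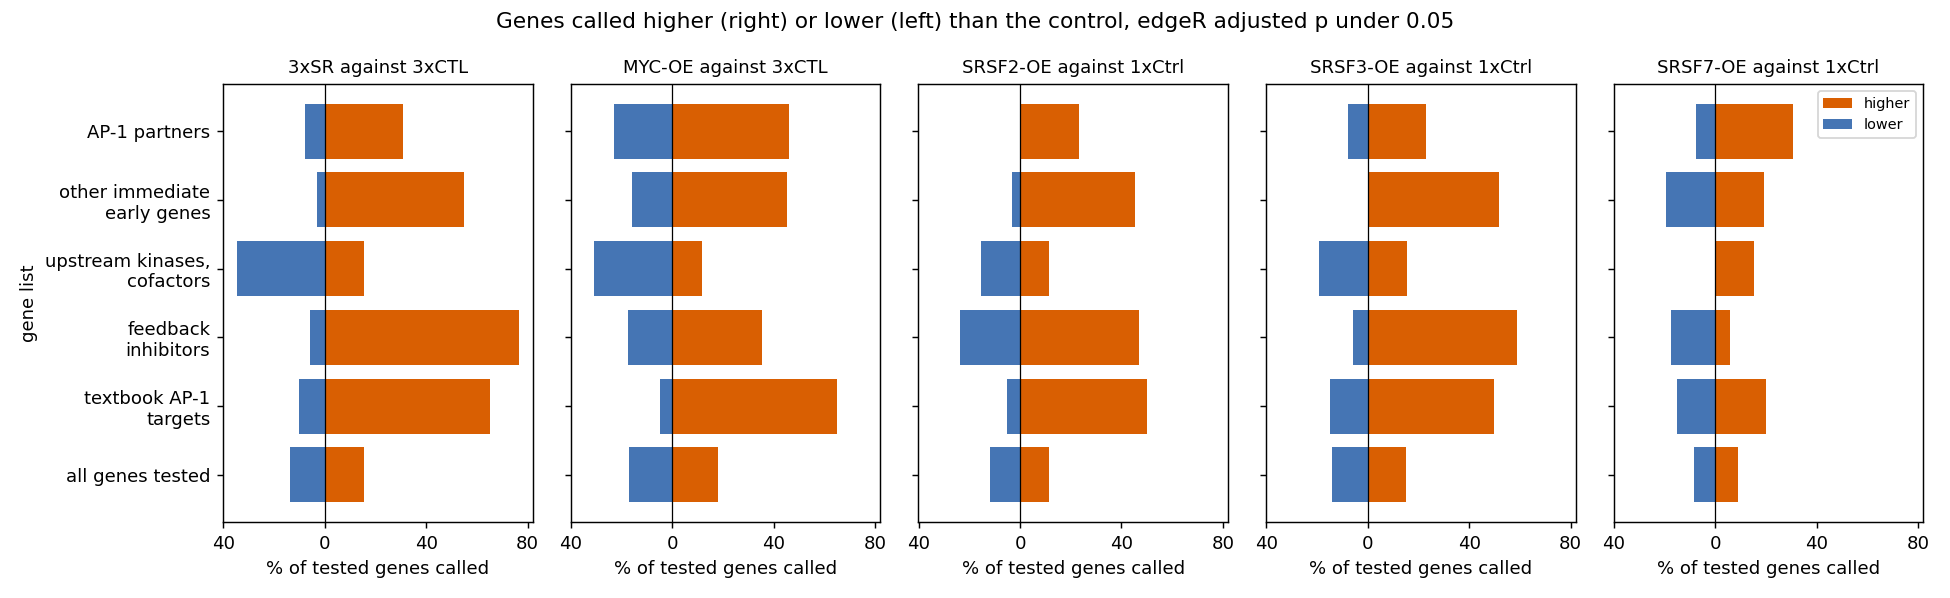
Percent of the tested genes of each list that were called higher (right of 0) or lower (left of 0) than the control by edgeR, with all genes tested at the bottom, for each line. In 3xSR 13 of 17 feedback inhibitors lie to the right against 15.3% of all genes, and in SRSF7-OE the other immediate early genes give 6 of 31 on each side.

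The genes whose pattern across the 21 libraries was most like that of FOSL1, among 11265 with at least 5 CPM and each taken relative to its control mean, were KRT6A (Pearson r = 0.975), CDKN1A (r = 0.971) and KRT16 (r = 0.951). KRT6A and KRT16 encode keratins of activated squamous cells and CDKN1A encodes a cell cycle inhibitor. CDKN1A lay 1.06, 0.82, 1.09, 1.05 and 0.44 log2 units above the control in 3xSR, MYC-OE, SRSF2-OE as labelled, SRSF3-OE and SRSF7-OE. For EGR1 the most alike were ARMC7 (r = 0.918), SMAD6 (r = 0.906) and CHD3 (r = 0.899). The libraries of a table share their controls and their depth and composition, so these r describe likeness only.

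The members' spread within groups followed the GC-rich genes to unequal degrees. Over the 21 libraries, the correlation of a gene's deviation from its group mean with the median deviation of the GC-rich genes was 0.933 for JUNB, 0.871 for JUN, 0.84 for IER3, 0.802 for FOSL1, 0.727 for IER2 and 0.7 for FOSL2. It was 0.504 for JUND, 0.499 for EGR1, 0.462 for FOSB and 0.273 for FOS. Without 1xCtrl replicates 2 and 3, the farthest libraries, it was 0.867 for JUNB, 0.777 for JUN, 0.658 for FOSL1 and 0.657 for FOS. The deviations of the 3 libraries of a group sum to about 0 and so are not independent points, and JUNB, JUND, IER2 and FOSL1 are themselves above 60% GC. What produced this spread was not tested.

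**Figure D5:**
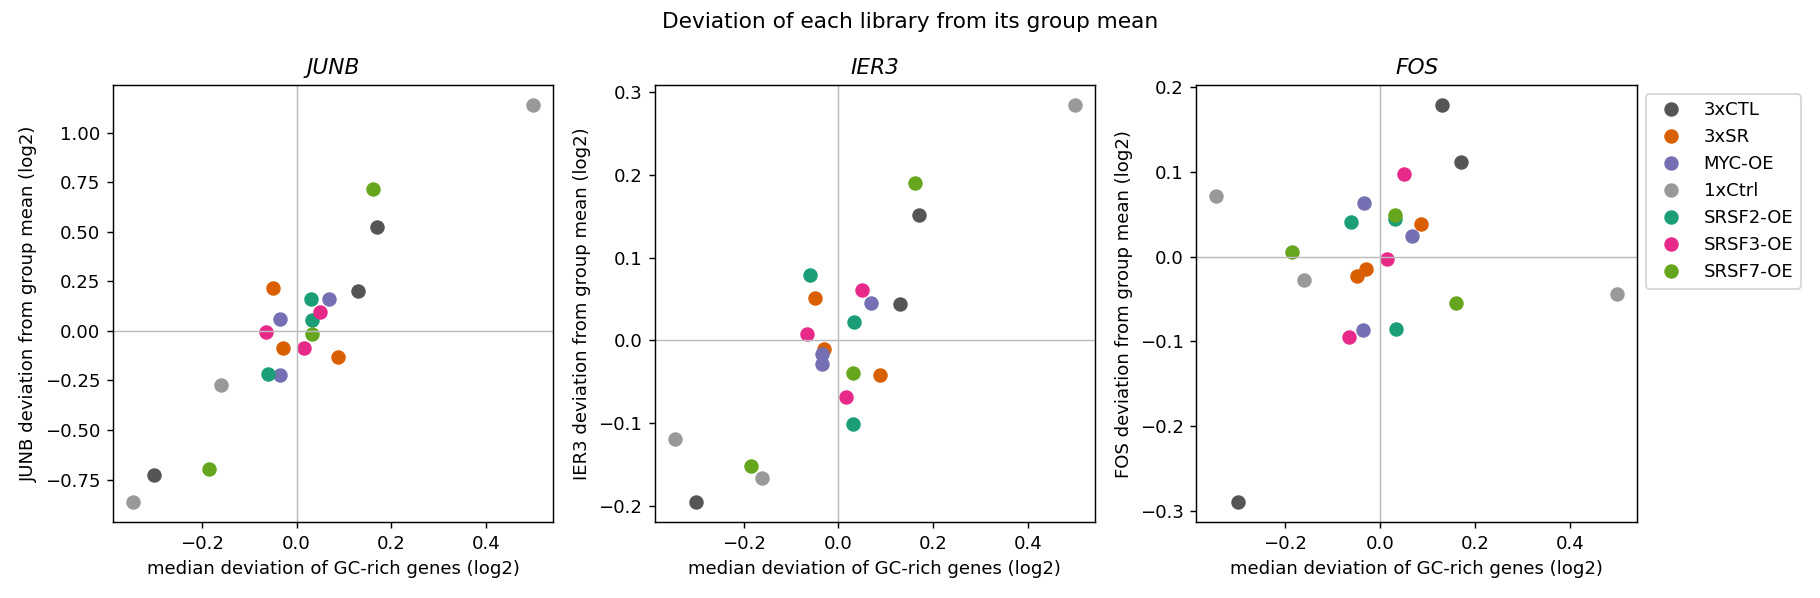
Deviation of each library from its group mean (log2) for JUNB, IER3 and FOS, against the median deviation of 1438 GC-rich genes in the same library; colours are groups of 3. In 1xCtrl replicate 2, at 0.499 on the horizontal axis, JUNB deviates by 1.14 and IER3 by 0.285, while FOS deviates by -0.0445.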

How the data were processed

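Per the labels' protocols, polyA-selected stranded libraries were sequenced as paired ends on an Illumina NovaSeq. The deposited tables hold whole-number counts per gene, not scaled, as their differing totals show. Per the submitters' processing notes, Trimmomatic 0.39, STAR and StringTie 2.1.3b and the build GRCh38.p13 were used, with no role stated; the counting tool, annotation and strand setting are not given in the sources used here.

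Symbols matched 42005 of 60668 identifiers. The model was edgeR 4.0.16 under R 4.3.3, with filterByExpr (minimum count 10, total 15), TMM scaling within each table, robust quasi-likelihood F tests of either direction, and Benjamini-Hochberg adjustment over all genes tested with a threshold of 0.05. Each table was fitted whole (23160 and 24362 genes), and differences between changes used a joint fit (25013 genes). The SE is the absolute log2 fold change divided by the square root of F. CPM are depth-scaled counts on the TMM-scaled library size. The procedure was tested on simulated counts, which held no GC trends of single libraries. Named are all 10 members, the 4 targeted genes, for each list and line at most the gene with the highest and that with the lowest change among those past the threshold with a mean of at least 1 CPM, and the 3 genes most like FOSL1 and EGR1. The members and lists were chosen with earlier results of these data known. Alternatives were other scalings, other filters, DESeq2 1.42.0, limma-voom (limma 3.58.1), a fit of only the groups compared, a replicate block, removal of each library's GC trend (50 bins; GC content known for 97.6% of genes) and leaving out each library. The list counts without the library standing farthest apart were added after seeing the data. Figures were drawn with matplotlib 3.10.9.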

Additional observations from a re-analysis of the deposited data

Results flagged for a closer look

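The results below are differences between the change in 3xSR and the change in a single line, each against its own control, tested in the joint edgeR fit of the 21 libraries. A negative value means that the gene was lower in 3xSR, relative to its control, than in the single line.

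Set against the libraries labelled SRSF2-OE, FOSL2 differed by -0.439 ± 0.0834 (SE, adjusted p = 0.000678) and EGR1 by -0.447 ± 0.124 (adjusted p = 0.0129). Both genes had opposite signs in the separate comparisons (FOSL2 -0.19 and 0.26, EGR1 -0.30 and 0.16), and both differences passed under all 21 alternatives. Of the separate changes, EGR1 in libraries labelled SRSF2-OE did not pass (edgeR adjusted p = 0.261), and each of the other calls was lost under some alternatives. Set against SRSF3-OE, FOSL2 differed by -0.272 ± 0.0833 (adjusted p = 0.0283), a call lost with total counts alone, with upper-quartile scaling and without any of 8 libraries (adjusted p up to 0.136): 1xCtrl replicates 1 and 3, 3xCTL replicates 1 and 3, 3xSR replicates 2 and 3 and SRSF3-OE replicates 1 and 3.

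Set against SRSF7-OE, 6 members rose more in 3xSR. The difference was 0.686 ± 0.209 for FOS (adjusted p = 0.021), 1.05 ± 0.192 for FOSB (adjusted p = 0.000439), 0.731 ± 0.123 for FOSL1 (adjusted p = 0.000207), 0.425 ± 0.138 for JUN (adjusted p = 0.0293), 0.44 ± 0.112 for IER2 (adjusted p = 0.00669) and 0.563 ± 0.158 for IER3 (adjusted p = 0.0131). FOSL2 differed by -0.392 ± 0.0833 (adjusted p = 0.00168). FOSB, FOSL1, FOSL2 and IER2 passed under every alternative, and IER2 was 0.819 with the GC trend removed. JUN was lost with no filter, without 1xCtrl replicate 2 (0.268, adjusted p = 0.0608) and without any of 7 other libraries (adjusted p up to 0.107): 3xCTL replicates 2 and 3, the 3 of 3xSR, and SRSF7-OE replicates 1 and 2. FOS was lost without 1xCtrl replicate 3, 3xSR replicate 2 or 3, or SRSF7-OE replicate 2 or 3 (adjusted p up to 0.0709), and IER3 without SRSF7-OE replicate 2 (adjusted p = 0.0542).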

How the results depend on the processing

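Of 58 calls over the 12 comparisons, 28 stayed past the threshold under every alternative and 30 were lost under at least 1. The cause of each change below was not tested, except that a left-out library or a fit of only the groups compared rests on fewer samples and a looser filter tests more genes.

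The number of members passing fell from 6 to 3 with no filter and 1 with only the groups compared in the libraries labelled SRSF2-OE. In SRSF7-OE it fell from 2 to 1 with the GC trend removed and to 0 in edgeR with no filter or only the groups compared (2 at an unadjusted p under 0.05 in both; DESeq2 and limma-voom called 2), while all genes called were 7005 and 2251 with the GC trend removed and only the groups compared, in place of 4214. SRSF3-OE against the libraries labelled SRSF2-OE gave 3 with no filter and 3 with the replicate block, and SRSF7-OE against the libraries labelled SRSF2-OE gave 3 with RLE scaling, at least 10 counts in every library, no filter, the replicate block or total counts alone. The 3xSR change against that of the libraries labelled SRSF2-OE gave 6 with the GC trend removed; against SRSF3-OE it gave 2 with the GC trend removed (7070 genes in all, in place of 4453) and 0 in edgeR with total counts alone or upper-quartile scaling (2 at an unadjusted p under 0.05). Where JUNB was compared between SRSF3-OE and the libraries labelled SRSF2-OE alone, it passed (-0.60, adjusted p = 0.000305).

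Values that changed sign were all uncalled in the main analysis. FOSL2 in MYC-OE was 0.00070 with DESeq2, 0.0070 with the GC trend removed, 0.00072 with RLE and 0.0086 with upper-quartile scaling, and in SRSF3-OE -0.015 with total counts alone. JUND was -0.020 in MYC-OE with the GC trend removed. In the libraries labelled SRSF2-OE it was -0.022 with the GC trend removed, -0.011 with limma-voom, -0.027 with no filter, -0.029 with only the groups compared and -0.046 with total counts alone. In SRSF3-OE JUND was -0.0053 with at least 10 counts in every library, -0.029 with no filter, -0.016 with only the groups compared, -0.087 with total counts alone and -0.037 with upper-quartile scaling, and JUNB was 0.050 with the GC trend removed. JUND was -0.23 in SRSF7-OE with the GC trend removed and, between MYC-OE and 3xSR, -0.49 with it removed (adjusted p = 0.00395) and -0.0059 with total counts alone.

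Leaving out 1 library at a time gave these ranges. Members passing were 1 to 6 in the libraries labelled SRSF2-OE, 3 to 5 in SRSF3-OE and 0 to 3 in SRSF7-OE (all genes 2685 to 7321), 3 to 5 for MYC-OE against 3xSR, 0 to 2 for SRSF3-OE and 3 to 3 for SRSF7-OE against the libraries labelled SRSF2-OE, and 3 to 5 for SRSF7-OE against SRSF3-OE. For the 3xSR change they were 0 to 2 against SRSF3-OE and 4 to 8 against SRSF7-OE. Log2 changes that crossed 0 were FOSL2 in MYC-OE (-0.084 to 0.035), JUNB in the libraries labelled SRSF2-OE (-0.16 to 1.08), SRSF3-OE (-0.75 to 0.50) and SRSF7-OE (-0.098 to 1.25), JUND in the libraries labelled SRSF2-OE (-0.11 to 0.10) and SRSF3-OE (-0.14 to 0.066), and EGR1 (-0.12 to 0.048) and IER3 (-0.089 to 0.21) in SRSF7-OE. Between MYC-OE and 3xSR, FOSL1 ran from -0.083 to 0.0072 and JUND from -0.056 to 0.098, and JUN in the 3xSR change against that of the libraries labelled SRSF2-OE from -0.037 to 0.19.

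The replicate numbers did not pair the libraries: no comparison had all 3 correlations of same-numbered libraries above 0.1, and for SRSF7-OE against 1xCtrl they were -0.078, -0.529 and -0.433. With the replicate block 7, 5, 6, 5 and 2 members passed in 3xSR, MYC-OE, SRSF2-OE as labelled, SRSF3-OE and SRSF7-OE. Depth limits FOS the most, with 120 to 414 counts a library.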
